A study of Mus musculus with 186 samples.

Results

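The genes described here are 10 members of the ErbB signalling system in single cells sorted from the mammary epithelium of adult mice. They comprise 6 ligands (*Nrg1*, *Areg*, *Btc*, *Hbegf*, *Egf* and *Tgfa*) and 4 receptors (*Egfr*, *Erbb2*, *Erbb3* and *Erbb4*). They were taken by name, and all 10 were found among the 27179 gene identifiers of the count files. The data described here are 186 cells of strain FVB/NJ, age Adult, from 8 mice, with no treatment. Of these, 96 were sorted as basal (lineage negative, CD29 high, CD24 positive) and 90 as luminal (lineage negative, CD29 low, CD24 positive). The paper also profiled other stages and kept more adult basal cells than these 96. The lineage gate removes cells carrying CD31, CD45 or TER119, that is, endothelial and blood cells. Each cell was captured in a well of a Fluidigm C1 chip, a device that isolates single cells and makes full-length cDNA in place. The labels tie no cell to a mouse and call each only by its number, so cells were not treated as replicates. Each population was therefore a single sample, for which neither tests nor standard errors are given. Intervals on levels (exact Poisson) and on shares of wells (exact Clopper-Pearson), all at 95%, cover counting error only. The reads carry no molecular identifiers.

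ErbB receptors are tyrosine kinases that signal as pairs after a ligand with an EGF-like domain binds. EGFR binds amphiregulin (*Areg*), betacellulin (*Btc*), HB-EGF (*Hbegf*), EGF (*Egf*) and TGF-alpha (*Tgfa*), whereas the neuregulins (*Nrg1*) bind ERBB3 and ERBB4, and betacellulin and HB-EGF also bind ERBB4. ERBB2 has no known ligand of its own and acts as a partner of the other receptors, while ERBB3 has very weak kinase activity and relies on a partner. In the mammary gland, amphiregulin from hormone-sensing luminal cells is known as a paracrine signal downstream of oestrogen in ductal growth, and neuregulin signalling has been tied to alveolar development.

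The EGF-like domain is the receptor-binding part of all these ligands, and its coding sequence is shown for *Nrg1*, *Areg* and *Btc*, the ligands with the largest differences between the populations, and for *Tgfa*, whose direction depended on the plate. The stretches run 5′ to 3′ from the codon of the first to that of the last conserved cysteine, and capitals mark the 6 cysteine codons. They were read from coding transcripts of GENCODE M21 on mm10, and the positions given span the intron between both exons.
Nrg1 (chr8:31837698-31849398, minus strand, exons 2 and 3 of 9): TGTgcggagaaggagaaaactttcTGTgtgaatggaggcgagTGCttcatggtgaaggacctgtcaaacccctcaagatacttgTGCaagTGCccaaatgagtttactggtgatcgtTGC
Areg (chr5:91143614-91144364, plus strand, exons 3 and 4 of 6): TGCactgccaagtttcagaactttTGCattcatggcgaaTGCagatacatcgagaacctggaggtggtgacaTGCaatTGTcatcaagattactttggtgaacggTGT
Btc (chr5:91362421-91366197, minus strand, exons 3 and 4 of 6): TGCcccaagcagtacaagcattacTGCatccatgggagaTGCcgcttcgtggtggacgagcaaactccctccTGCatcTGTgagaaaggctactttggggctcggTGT
Tgfa (chr6:86263200-86269960, plus strand, exons 3 and 4 of 6): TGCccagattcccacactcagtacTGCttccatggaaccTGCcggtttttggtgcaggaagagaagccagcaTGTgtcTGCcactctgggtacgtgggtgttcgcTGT
The stretch was 120 bases long in *Nrg1* and 108 bases in each of the other 3 ligands, so the ERBB3 and ERBB4 ligand carries 4 more codons between its cysteines than the EGFR ligands shown. For *Nrg1*, 8 of 12 annotated coding transcripts carried exactly these bases. The counts are per gene and do not separate such isoforms.

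The wells differed in ways that touch the results below. After mitochondrial, ribosomal protein and unannotated genes were removed, 72 of 96 basal and 76 of 90 luminal wells met the thresholds of the study, with 69943 to 1969857 reads (read pairs assigned to genes) per basal well and 105655 to 3229958 per luminal well. The labels name a PCR plate for each cell. Basal wells that passed came from plates A (50) and B (22). Luminal wells came from plates B (24) and C (52), and both populations thus met only on plate B. At an equal depth of 50000 reads, a median of 1578 genes was found in basal wells of plate B, against 2917 in basal wells of plate A, 3208 in luminal wells of plate B and 3409 in luminal wells of plate C. The sorted populations matched their labels by markers. The 10 basal markers summed to a median of 12477 CPM (reads of a gene per 1000000 reads counted) in basal wells and 3.84 CPM in luminal wells, and the 10 luminal markers to 611 and 9357 CPM. The marker profile of 1 basal well (cell 90) and 1 luminal well (cell 63) went against the label. Endothelial transcripts (at least 4 of 10 markers at 10 CPM or more) were present in 4 basal and 4 luminal wells despite the gate, fibroblast transcripts in 1 and 6 wells, and pericyte transcripts in 0 and 3. No well reached this mark for immune cells, and 4 of the 10 immune markers had no read in any basal well. In all, 6 basal and 10 luminal wells fell into these classes, and ratios are also given without them where this matters.

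Among the ligands and receptors, 5 members were at least 2-fold higher in luminal cells (*Areg*, *Btc*, *Erbb2*, *Erbb3* and *Erbb4*) and 3 were at least 2-fold higher in basal cells (*Nrg1*, *Tgfa* and *Egfr*). *Hbegf* and *Egf* differed by less. The ratio is log2 of luminal over basal summed CPM with 1 CPM added to each, and 2-fold is a value of 1. Of all 14775 genes that passed the filter on low values (1 CPM in 3 wells), 28.4% were 2-fold higher in luminal and 18.3% in basal cells. All 10 members passed that filter. The median ratio was 0.91 over the members and 0.18 over all genes. On plate B alone *Egfr* and *Tgfa* no longer followed the pooled direction (below), and *Hbegf* was 2-fold higher in basal cells there. On that plate 5 members were 2-fold higher in luminal and 2 in basal cells, against 48.6% and 19.3% of the 11071 genes that passed the filter there. The plot of single wells shows how differently the members were spread over cells.

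**Figure D1:**
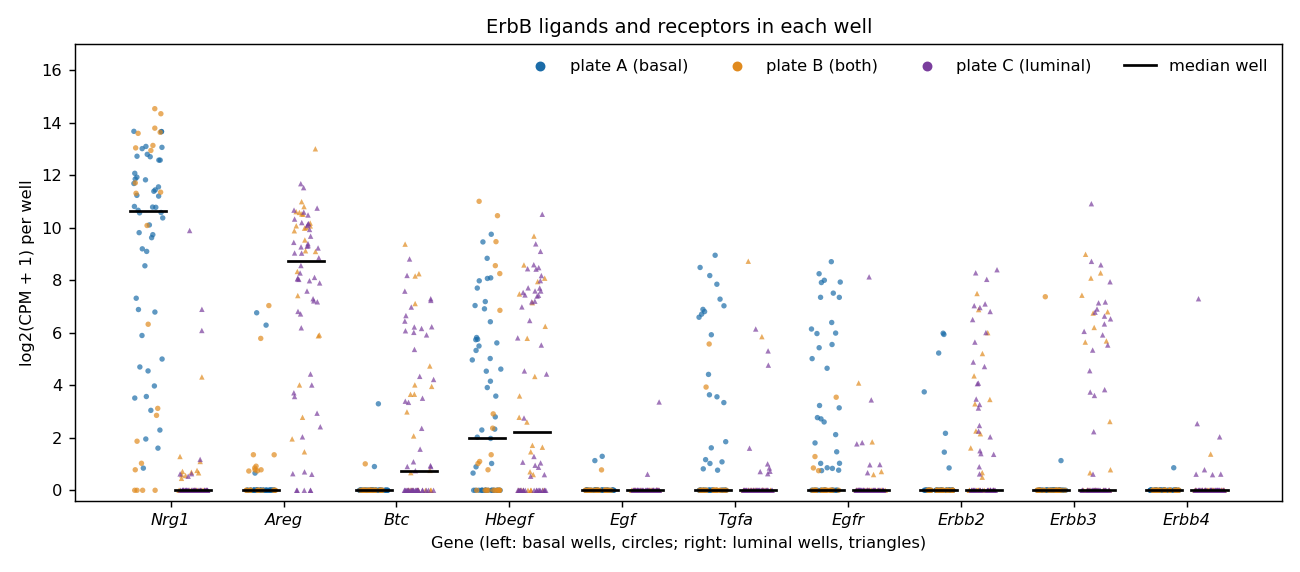
Level of each ErbB ligand and receptor in every well that passed (72 basal wells as circles, 76 luminal wells as triangles), as log2(CPM + 1), coloured by PCR plate, with a bar at the median well. *Nrg1* in basal and *Areg* in luminal wells are the members whose median well lies far from 0, while *Egfr* reads of basal wells lie mostly on plate A.

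*Nrg1* (Entrez 211323, chr8:31807452-32891609), the neuregulin ligand of ERBB3 and ERBB4, was the most abundant member in basal cells. Its level there was 3756 CPM (3743 to 3769), and single basal wells ran from 0 to 23743 CPM with a median of 1577 CPM. In luminal wells the lowest and the median were 0 and the highest was 951 CPM, with 12.3 CPM (11.7 to 13) in all. The ratio was -8.14. Of 72 basal wells, 68 held a read, 58 held 10 CPM or more and 41 held 1000 CPM or more. On plate B 13 of 22 basal wells reached 10 CPM and 4 held no read. The ranges of single wells overlapped, mainly through luminal cell 63, which held 1167 of the 1409 luminal reads and whose basal markers summed to 10182 CPM. Without that well the luminal level was 2.14 CPM and the ratio -10.22. Basal wells of plate B held 5235 CPM and those of plate A 3018 CPM. On plate B alone, luminal wells held 0.353 CPM and the ratio was -11.92.

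*Areg* (Entrez 11839, chr5:91139599-91148432), which encodes the EGFR ligand amphiregulin, showed the opposite distribution. Luminal wells ran from 0 to 8232 CPM with a median of 419 CPM, and 54 of 76 held 100 CPM or more. Basal wells had a median of 0 and a highest value of 130 CPM, in basal cell 90. The summed levels were 740 CPM (735 to 745) in luminal and 5.30 CPM (4.82 to 5.81) in basal cells, a ratio of 6.88. Only 4 basal wells exceeded 10 CPM. They were cells 6, 13, 64 and 90. Luminal marker sums were 4162 CPM in cell 13 and 5625 CPM in cell 90, above the median of 611 CPM in basal wells, but 529 CPM in cell 6 and 34.0 CPM in cell 64. Without cell 90, which goes against its label, the basal level was 3.12 CPM and the ratio 7.49. Luminal levels were 1023 CPM on plate B and 605 CPM on plate C, and the ratio on plate B alone was 6.61.

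Wells with under 10 CPM of the other population's leading ligand were more frequent on the shared plate. The reads as a whole were spread otherwise. Plate C held 1396 of the 1409 luminal *Nrg1* reads. Plate B held 266 of the 446 basal *Areg* reads, 188 of them in basal cell 90. *Nrg1* reads at under 10 CPM were seen in 9 of 24 luminal wells on plate B (37.5%, 18.8 to 59.4), which also carried basal cells, and in 4 of 52 on plate C (7.69%, 2.14 to 18.5). *Areg* reads at under 10 CPM were seen in 8 of 22 basal wells on plate B (36.4%, 17.2 to 59.3) and in 1 of 50 on plate A (2%, 0.0506 to 10.6). These wells held 1 or 2 reads each. They added 0.298 CPM to the *Nrg1* level of luminal wells on plate B and 0.286 CPM to the *Areg* level of basal wells there. Where these reads came from was not tested.

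*Btc* (Entrez 12223, chr5:91357261-91402994), encoding betacellulin, a ligand of both EGFR and ERBB4, was a luminal transcript with a lower and more uneven level than *Areg*. Luminal wells ran from 0 to 663 CPM with a median of 0.684 CPM, and 10 of them reached 100 CPM. The highest basal well held 8.81 CPM, below the level of 27 luminal wells at 10 CPM or more. The summed levels were 46.1 CPM (44.8 to 47.3) in luminal cells and 0.131 CPM (0.0652 to 0.234) in basal cells, where all wells together had 11 reads, 9 of them in basal cell 58. The ratio was 5.38 (5.22 to 5.50), with 5.84 on plate B. Among luminal wells the 5 highest held 56.4% of the reads. At 50000 reads per well, *Areg* was found in 24 of the 25 luminal wells with *Btc*, and *Btc* in 24 of the 60 with *Areg*. Multiplying the share of each gene gives 19.7 wells with both. At full depth both were found in 38 luminal wells, where multiplication gives 37.4.

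*Areg* and *Btc* lie near each other on chromosome 5 with 2 further EGF family genes, in the order *Epgn*, *Ereg*, *Areg*, *Btc*, with no other annotated protein-coding gene among them in RefSeq over 375.5 kb. The neighbours were not distributed alike. *Ereg* (epiregulin), next to *Areg*, was higher in summed basal cells, with 47.3 CPM against 2.53 CPM and a ratio of -3.77. The 5 highest basal wells held 99.1% of its basal reads. At 50000 reads it was found in 9.72% of basal wells (4 to 19) and 2.63% of luminal wells (0.32 to 9.18), and these intervals overlapped. Luminal cell 63 held 97.9% of its luminal reads. The ratio was -5.52 without that well, -3.18 without basal cell 25 and -3.09 without basal cell 81. The ratio of *Epgn* (epigen) was -0.73, from 22.9 CPM in the basal and 13.4 CPM in the luminal population, and basal cell 36 alone held 71% of its basal reads. Without that well the ratio was 0.89. The 250 bases upstream of the *Areg* and *Btc* starts are shown because these neighbours were both luminal but differed in level (RefSeq promoter table, GRCm38.p6, the assembly of mm10, gene strand). Capitals mark matches on either strand to a cyclic AMP response element (TGACGTCA), an AP-1 element (TGANTCA), a GC box (GGGCGG) or a TATA box (TATAAA). No match overlapped another, and 7 of the 10 members had an entry in that table.
Areg upstream (chr5:91139349-91139598, plus strand): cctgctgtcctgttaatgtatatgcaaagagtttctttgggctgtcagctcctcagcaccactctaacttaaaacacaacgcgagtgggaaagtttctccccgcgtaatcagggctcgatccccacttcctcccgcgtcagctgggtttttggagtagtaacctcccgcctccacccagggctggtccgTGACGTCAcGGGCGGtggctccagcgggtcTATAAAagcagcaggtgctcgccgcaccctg
Btc upstream (chr5:91402995-91403244, minus strand): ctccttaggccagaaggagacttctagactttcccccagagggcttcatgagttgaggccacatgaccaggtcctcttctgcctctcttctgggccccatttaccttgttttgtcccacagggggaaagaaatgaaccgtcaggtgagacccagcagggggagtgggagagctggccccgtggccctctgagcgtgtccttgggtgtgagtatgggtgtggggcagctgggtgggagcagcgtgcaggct
The *Areg* window held the cyclic AMP response element starting 61 bases before the gene's start, the GC box at 52 and the TATA box at 31 bases. The *Btc* window held none of the 4 letter patterns. Over the 32851 windows of that table, 1.55% held the cyclic AMP response element, 6.75% the AP-1 element, 32.7% the GC box and 12.4% the TATA box. A match is a description of letters and not a measured binding site.

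*Hbegf* (Entrez 15200, chr18:36504927-36515805), encoding the membrane-anchored ligand HB-EGF of EGFR and ERBB4, was found in both populations. Basal wells ran from 0 to 2057 CPM with a median of 3.00 CPM, and luminal wells from 0 to 1461 CPM with a median of 3.67 CPM. The distributions overlapped over nearly their whole range. Summed levels were 126 CPM (124 to 129) for basal and 106 CPM (104 to 108) for luminal wells. The ratio was -0.25, which became 0.14 without basal cell 64, the well of 25% of the basal reads. On plate B the ratio was -1.22, with 212 CPM in basal and 90.3 CPM in luminal wells, and for basal plate A against luminal plate C it was 0.43. Basal cell 64 held 44.8% of the basal reads on plate B. Of the 4 basal wells with endothelial transcripts, all on that plate, cell 63 held 1407 CPM of *Hbegf*, cell 95 held 708 CPM, cell 72 held 304 CPM and cell 80 held 6.52 CPM, and their part in the plate B ratio was not tested.

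*Tgfa* (Entrez 21802, chr6:86195038-86275744), encoding the EGFR ligand TGF-alpha, had a median of 0 in both populations and highest wells of 494 CPM (basal) and 422 CPM (luminal). Reads were found in 24 of 72 basal and 11 of 76 luminal wells. The summed level was 33.0 CPM for basal and 8.57 CPM for luminal wells, and the ratio -1.83. Luminal cell 6 held 660 of the 979 luminal reads, and the ratio was -3.15 without it. The basal reads were mostly on plate A, at 48.0 CPM against 2.78 CPM on plate B. On plate B alone luminal wells held 20.4 CPM, mostly cell 6, and the ratio turned to 2.50. *Egf* (Entrez 13645, chr3:129677574-129755322), the founding ligand of the family, had 4 reads in each population, in 3 basal and 2 luminal wells, and no fold is given at that level. At 50000 reads it was found in 0 of 72 basal wells, which allows a share of up to 4.17% by the limit of 3 counts (4.99% by the exact interval), and in 0 of 76 luminal wells, which allows up to 3.95% (4.74%).

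*Egfr* (Entrez 13649, chr11:16752203-16913907), the receptor of the EGF ligands, was higher in basal cells over all wells, at 34.7 CPM (33.4 to 35.9) against 3.24 CPM (2.92 to 3.59) in luminal cells, a ratio of -3.07. Single basal wells ran from 0 to 417 CPM with a median of 0, and luminal wells from 0 to 279 CPM, also with a median of 0. Luminal cell 50 held 320 of the 370 luminal reads, and the ratio was -4.63 without it. The basal level was that of plate A. Basal wells of plate A held 51.7 CPM with reads in 30 of 50 wells, whereas those of plate B held 0.571 CPM with reads in 4 of 22 wells, a log2 ratio of plate B over plate A of -5.07. On plate B alone the populations did not separate, with 0.571 CPM in basal and 0.786 CPM in luminal wells and a ratio of 0.19. The same log2 ratio was -3.70 for *Tgfa* and -2.31 for *Erbb2*. Such ratios were common, since 47.2% of the 11969 genes that passed the filter in basal wells were 2-fold lower on plate B, the plate with fewer genes per basal well. *Areg* (1.32), *Hbegf* (1.33) and *Erbb3* (3.08, from 1 well) were 2-fold higher on plate B, as were 14.7% of those genes, and *Nrg1* was at 0.79. The part that gene recovery plays in the *Egfr* level was not tested.

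*Erbb2* (Entrez 13866, chr11:98412484-98437716), the receptor without a ligand, was at 26.6 CPM (25.7 to 27.6) in luminal and 2.65 CPM (2.31 to 3.02) in basal cells, a ratio of 2.92. Luminal wells ran from 0 to 337 CPM with a median of 0 and an upper quartile of 11.5 CPM. Basal wells ran from 0 to 62.3 CPM, and reads were found in 7 of 72. All basal reads were on plate A. The ratio was 4.28 on plate B, where no basal well held a read, and 2.66 for basal plate A against luminal plate C.

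*Erbb3* (Entrez 13867, chr10:128567523-128589635), the neuregulin receptor with very weak kinase activity, was the most abundant receptor in luminal cells. Luminal wells ran from 0 to 1931 CPM with a median of 0, and 28 of 76 held 10 CPM or more. In basal cells it was essentially in 1 well, since basal cell 64 on plate B, at 165 CPM, held 213 of 214 reads. The summed levels were 68.2 CPM (66.7 to 69.7) and 2.54 CPM (2.21 to 2.91), a ratio of 4.29, and without basal cell 64 the basal level was 0.0121 CPM and the ratio 6.10. That well also held *Nrg1* above the basal median, and its luminal markers summed to 34.0 CPM, below the basal median of 611 CPM. Luminal cell 50 held 28.4% of the luminal reads, and the ratio without it was 3.83. Luminal levels were 65.0 CPM on plate B and 69.7 CPM on plate C.

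*Erbb4* (Entrez 13869, chr1:68031884-69108576), the neuregulin receptor with an active kinase, was nearly absent by these counts. Its luminal level of 2.59 CPM (2.31 to 2.91) came almost wholly from luminal cell 39, which held 284 of 296 reads at 156 CPM and in which 8 of 10 fibroblast markers reached 10 CPM. The basal wells held 1 read in all. The ratio was 1.83 (1.63 to 1.96) over all wells, 0.13 without cell 39 and 0.04 on plate B alone, so its place among the members higher in luminal cells rests on 1 well.

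**Figure D2:**
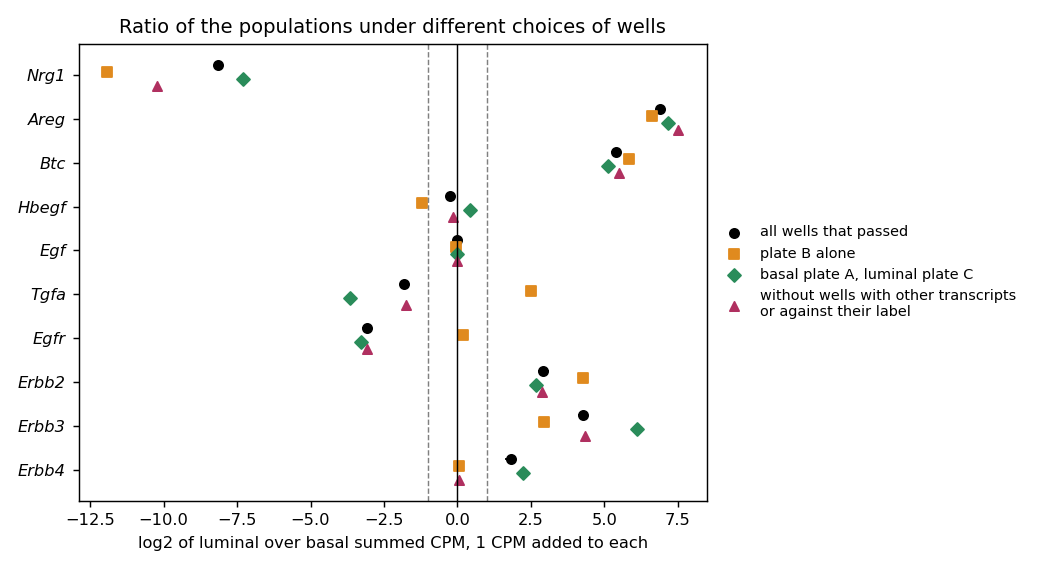
Ratio of luminal over basal summed CPM (log2, 1 CPM added to each) for each member over all wells that passed, on plate B alone, for basal plate A against luminal plate C, and without the 16 wells with other transcripts or against their label. Dashed lines mark 2-fold and the line on each black point the counting interval. *Nrg1*, *Areg*, *Btc*, *Erbb2* and *Erbb3* keep their side in all 4 sets, whereas *Tgfa*, *Egfr*, *Hbegf* and *Erbb4* lie within 2-fold or on the other side in at least 1 of them.

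Levels of different genes can be set against each other only per length. In CPM per kilobase of annotated gene length, the ligands in basal cells ran from *Nrg1* at 1786 through *Hbegf* at 53.1, *Tgfa* at 7.80, *Areg* at 4.42 and *Btc* at 0.0454 to *Egf* at 0.00999. The receptors there were *Egfr* at 5.38, *Erbb3* at 0.632, *Erbb2* at 0.530 and *Erbb4* at 0.00279. The intervals of *Erbb3* (0.550 to 0.723) and *Erbb2* (0.463 to 0.604) overlapped, and both rested on few wells. In luminal cells the ligands ran from *Areg* at 617 through *Hbegf* at 44.5, *Btc* at 16.0, *Nrg1* at 5.87 and *Tgfa* at 2.03 to *Egf* at 0.00736. The receptors were *Erbb3* at 17.0, *Erbb2* at 5.32, *Erbb4* at 0.609 and *Egfr* at 0.503. This order rests in part on single wells, since luminal *Nrg1* was at 1.02 without cell 63, below *Tgfa*, and *Erbb4* at 0.0251 without cell 39, below *Egfr*. In each population the leading ligand was thus far above any receptor on this scale. Over all wells, a receptor of each leading ligand was higher in the other population. *Nrg1* was basal while *Erbb3* was luminal, and *Areg* was luminal while *Egfr*, on plates A and C, was basal. On plate B, the only plate with both populations, *Egfr* did not separate them (ratio 0.19). *Erbb4*, the other *Nrg1* receptor, had a ratio of 0.13 without luminal cell 39. *Hbegf* was present with *Egfr* in basal cells.

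The detection of a member per cell was compared at an equal depth of 50000 reads per well. *Nrg1* was found in 59 of 72 basal wells (81.9%, 71.1 to 90) and 4 of 76 luminal wells (5.26%, 1.45 to 12.9). *Areg* was found in 4 basal wells (5.56%, 1.53 to 13.6) and 60 luminal wells (78.9%, 68.1 to 87.5). *Btc* was found in 0 basal wells, which allows up to 4.17% by the limit of 3 counts (4.99% by the exact interval), and in 25 luminal wells (32.9%, 22.5 to 44.6). For these 3 ligands the intervals of the populations did not overlap. Of the receptors, *Egfr* was found in 23.6% of basal wells (14.4 to 35.1) and 2.63% of luminal wells (0.32 to 9.18), and *Erbb3* in 1.39% (0.0352 to 7.5) and 35.5% (24.9 to 47.3), also without overlap. The intervals of *Egfr* overlapped at 100000 reads per well and where 5 reads were required. The 5 members so separated can be read against all genes, of which 8.99% had separate intervals with luminal wells higher and 2.88% with basal wells higher. *Hbegf* (36.1% of basal and 44.7% of luminal wells), *Tgfa* (19.4% and 6.58%), *Erbb2* (6.94% and 21.1%) and *Erbb4* (0% and 3.95%) had intervals that overlapped. At full depth the shares rose to 94.4% of basal wells for *Nrg1*, 93.4% of luminal wells for *Areg*, 52.6% of luminal wells for *Btc*, 47.2% of basal wells for *Egfr*, 48.7% of luminal wells for *Erbb2* and 43.4% of luminal wells for *Erbb3*. On plate B alone *Egfr* was found in no well of either population at 50000 reads. There the intervals of *Nrg1* and *Areg* alone were separate. The share of all genes with separate intervals on that plate was not computed.

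**Figure D3:**
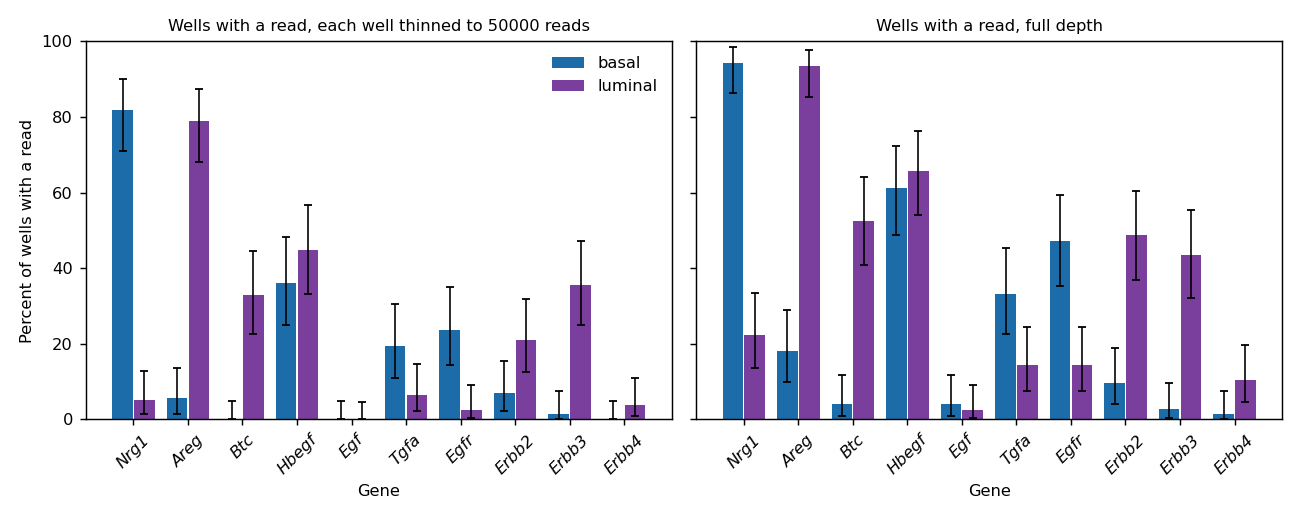
Percent of wells with a read of each member in basal (72 wells) and luminal (76 wells) cells, with each well thinned to 50000 reads (left) and at full depth (right). Error bars are exact 95% Clopper-Pearson intervals for counting error only. *Nrg1*, *Areg*, *Btc*, *Egfr* and *Erbb3* have separate intervals in the left plot, and *Erbb2* in addition in the right plot.

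A read of any listed receptor was found in fewer wells than a read of any listed ligand, in both populations. Gene by gene this did not always hold. *Egfr* was found in 23.6% of basal wells at 50000 reads, against 19.4% for *Tgfa*. *Erbb3* was found in 35.5% of luminal wells, against 32.9% for *Btc*. At 50000 reads at least 1 of the 6 ligands was found in 64 of 72 basal wells (88.9%, 79.3 to 95.1) and 68 of 76 luminal wells (89.5%, 80.3 to 95.3). At least 1 of the 4 receptors was found in 20 basal wells (27.8%, 17.9 to 39.6) and 39 luminal wells (51.3%, 39.6 to 63). On plate B the receptor numbers were 1 of 22 basal wells (4.55%) and 12 of 24 luminal wells (50%), and on the other plates 19 of 50 basal wells (38%) and 27 of 52 luminal wells (51.9%). At full depth 27 of 76 luminal wells and 5 of 72 basal wells held 2 or more receptor transcripts. *Erbb2* and *Erbb3* stood together in 15 luminal wells (19.7%, 11.5 to 30.5) at full depth, where multiplying the share of each gene gives 21.1%. At 50000 reads they did so in 5 wells (6.58%, 2.17 to 14.7), where it gives 7.48%.

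Of the 9 ligand-receptor pairs examined, 2 were found together in at least 5 wells at 50000 reads, and both were EGFR ligands in basal cells. *Hbegf* and *Egfr* were together in 8 of 72 basal wells (11.1%, 4.92 to 20.7), where multiplying the share of each gene gives 8.53%. *Tgfa* and *Egfr* were together in 7 basal wells (9.72%, 4 to 19), where multiplication gives 4.59%, and 7 of the 14 basal wells with *Tgfa* held *Egfr*. All these wells were on plate A, where the shares were 16% (13.6% by multiplication) for *Hbegf* and 14% (8.84% by multiplication) for *Tgfa*. With 5 reads of each gene required, *Hbegf* and *Egfr* were together in 3 basal wells and *Tgfa* and *Egfr* in 4, so no pair reached 5 wells. At full depth 5 of the 9 pairs did, with *Hbegf* and *Egfr* together in 21 basal wells (29.2%, 28.9% by multiplication) and 10 luminal wells, and *Tgfa* and *Egfr* in 17 basal wells (23.6%, 15.7% by multiplication). At 50000 reads *Areg* and *Egfr* were together in 0 basal and 1 luminal well, and *Btc* and *Egfr* in none. At full depth *Areg* and *Egfr* were together in 4 basal and 9 luminal wells, where multiplication gives 6.14 and 10.3. *Btc* and *Egfr* were so in 2 and 6 wells, where it gives 1.42 and 5.79. At 50000 reads *Nrg1* and *Erbb3* were together in 1 basal well (cell 64) and in 0 of 76 luminal wells. Of these luminal wells 4 held *Nrg1* and 27 held *Erbb3*, and multiplication gives 1.42 wells. At full depth *Nrg1* and *Erbb3* were together in 9 luminal wells (11.8%, 5.56 to 21.3), where multiplication gives 9.71%. Each of these wells held 1 or 2 reads of *Nrg1*, and 6 of them were on plate B. At 50000 reads *Nrg1*, which is no ligand of EGFR, was found in 16 of the 17 basal wells with *Egfr*, all on plate A, where multiplication gives 15.3 wells.

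Within the luminal sort, *Areg* and *Hbegf* varied in opposite directions along a luminal score. The score is the mean log2(CPM + 1) of 10 mature luminal markers less that of 10 luminal progenitor markers. It describes a range and not a cell type. It was above 0 in 46 and at or below 0 in 30 of 76 wells, with 12 within 1 of 0. *Areg* was at 885 CPM above 0 and 488 CPM at or below it (log2 ratio 0.86), with median wells of 656 and 46.2 CPM, and at 50000 reads it was found in 43 of 46 (93.5%, 82.1 to 98.6) and 17 of 30 wells (56.7%, 37.4 to 74.5). Its Spearman correlation with the score over the 76 wells was 0.45, with 0.31 on plate B and 0.55 on plate C. Its log2 ratio was 0.25 on the former and 1.36 on the latter. *Hbegf* was at 60.0 CPM above 0 and 185 CPM at or below it (-1.61), with median wells of 0.726 and 117 CPM. Its correlation was -0.46, with -0.44 on plate B and -0.46 on plate C. Of all 13190 genes that passed the filter in luminal wells, 18.7% were 2-fold higher at or below 0 and 23.2% above it. These correlations are descriptions over wells that share plates and differ in depth.

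The correlation with the score was weaker for the remaining members. It was 0.16 for *Btc*, 0.12 for *Erbb3*, 0.14 for *Erbb2*, 0.10 for *Erbb4*, 0.05 for *Nrg1*, -0.08 for *Tgfa* and -0.23 for *Egfr*. The ratio between the ranges passed 2-fold for *Nrg1* (4.15), *Tgfa* (-1.90), *Egfr* (-2.84) and *Erbb4* (-2.88). Without its top well the ratio was 1.92 for *Nrg1*, 1.17 for *Tgfa*, -0.37 for *Egfr* and -0.09 for *Erbb4*. The *Nrg1* reads left were mainly in luminal cells 65 (174 reads) and 29 (51 reads) of plate C, and its plate B ratio was 0.06. For *Btc* (0.72), *Erbb2* (-0.72) and *Erbb3* (-0.56) the ranges differed by less than 2-fold, and *Erbb3* took opposite signs on plate B (1.34) and plate C (-1.24). At 50000 reads *Erbb3* was found in 39.1% of wells above 0 and 30% of the others, and *Btc* in 41.3% and 20%.

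**Figure D4:**
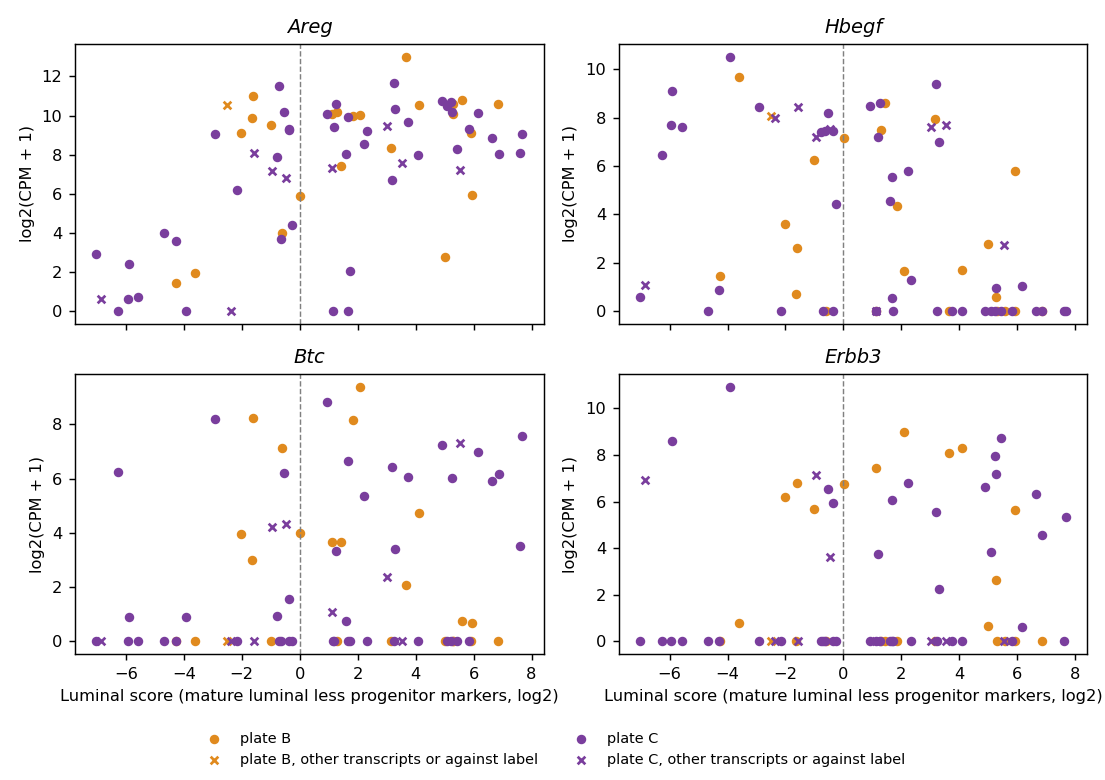
Level of *Areg*, *Hbegf*, *Btc* and *Erbb3* in each of 76 luminal wells, as log2(CPM + 1), against the luminal score (mature luminal less luminal progenitor markers, log2 units), coloured by plate, with crosses for wells with other transcripts or against their label and a dashed line at 0. *Areg* is low in the wells with the lowest scores, *Hbegf* is at or near 0 in most wells with the highest scores, and *Btc* and *Erbb3* have wells at or near 0 along the whole score.

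For each member found in at least 20% of the wells of its higher population, the genes most like it were the 3 with the largest Pearson correlation of log2(CPM + 1) over those wells. In luminal wells *Areg* was most like *Tlcd4* (0.79), *Cited1* (0.76), which encodes a transcriptional cofactor known in hormone-sensing luminal cells, and *Capsl* (0.76), among 8942 genes over 76 wells. Without the 10 luminal wells of other transcripts or against their label these were 0.78, 0.77 and 0.77. For the other members the closest genes lay lower. *Nrg1* in 72 basal wells was most like *Eif2s1* (0.62), *Ccnd2* (0.58) and *Vcan* (0.57) among 7390 genes. The closest gene was *Thyn1* (0.57) for *Btc*, *Bod1* (0.54) for *Erbb3*, *Dcaf10* (0.51) for *Erbb2*, *Dtd1* and *Vangl1* (both 0.57) for *Egfr*, *Map2k4* and *Sdc1* (both 0.55) for *Tgfa* and *Alad* (0.51) for *Hbegf*. The 99th percentile of the size of the correlation ran from 0.34 to 0.47 over the members. All such values are over wells that share plates and differ in depth, and they were not computed within a plate.

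The rest of the pathway was followed in a list of 34 other genes, of which 33 passed the filter on low values. Of these, 11 were 2-fold higher in basal and 8 in luminal cells, shares that can be read against the 18.3% and 28.4% of all genes, and their median ratio was -0.57 against 0.18. Among the 8 feedback and target genes of the downstream kinase cascade, 6 passed 2-fold toward basal and 1 toward luminal cells, with a median of -1.46. *Spry4*, an inhibitor of receptor tyrosine kinase signalling, was at 170.8 CPM in basal against 35.0 CPM in luminal cells (-2.26). The ratio was -2.95 on plate B and -1.20 for basal plate A against luminal plate C. Basal cell 72, a well with endothelial transcripts on plate B, held 32.9% of its basal reads. At 50000 reads *Spry4* was found in 26.4% of basal and 23.7% of luminal wells. *Etv5*, an ETS transcription factor, was at 59.0 and 7.15 CPM (-2.88), but the ratio was -0.22 on plate B, and luminal cell 1 held 84.9% of its luminal reads. *Spred1* turned from -1.44 over all wells to 2.11 on plate B. On that plate 3 of the feedback genes were 2-fold higher in basal and 3 in luminal cells, where 19.3% and 48.6% of all genes were.

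Of the 4 genes for shedding of ligands from the membrane, *Adam10*, a protease known to release betacellulin and EGF, was at 36.1 CPM in basal against 154.7 CPM in luminal cells (2.07), and *Rhbdf2*, a cofactor of the main ErbB ligand sheddase, at 10.8 and 49.5 CPM (2.10). On plate B these ratios were 3.13 and 2.65. *Adam17*, that sheddase, had a ratio of -0.72, and basal cell 84 held 49.3% of its basal reads. Of the 10 adaptors and effectors, 4 were 2-fold higher in luminal and 2 in basal cells, where 28.4% and 18.3% of all genes were. On plate B the numbers were 6 and 1, where 48.6% and 19.3% of all genes were. *Shc1*, an adaptor that binds activated ErbB receptors, was at 9.94 CPM in basal against 62.4 CPM in luminal cells (2.53). *Plcg1*, a phospholipase recruited to EGFR, was at 21.6 and 0.569 CPM (-3.85), and luminal cell 33, a well with fibroblast transcripts, held 90.8% of its luminal reads. Of the 7 negative regulators, 2 passed 2-fold toward basal cells and none toward luminal cells, with a median of -0.59. On plate B 2 passed toward basal and 1 toward luminal cells. The same shares of all genes apply. *Errfi1*, a feedback inhibitor of EGFR, was the most widely found of them, in 65 of 72 basal and 64 of 76 luminal wells at 50000 reads. Of the 5 further ligands, *Ereg* passed 2-fold toward basal cells and 1 toward luminal cells, namely the neuregulin *Nrg4* with 0.0594 CPM in basal against 8.53 CPM in luminal cells (3.17). Luminal cell 17 held 47.8% of the *Nrg4* reads, and the ratio was 2.38 without it.

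**Figure D5:**
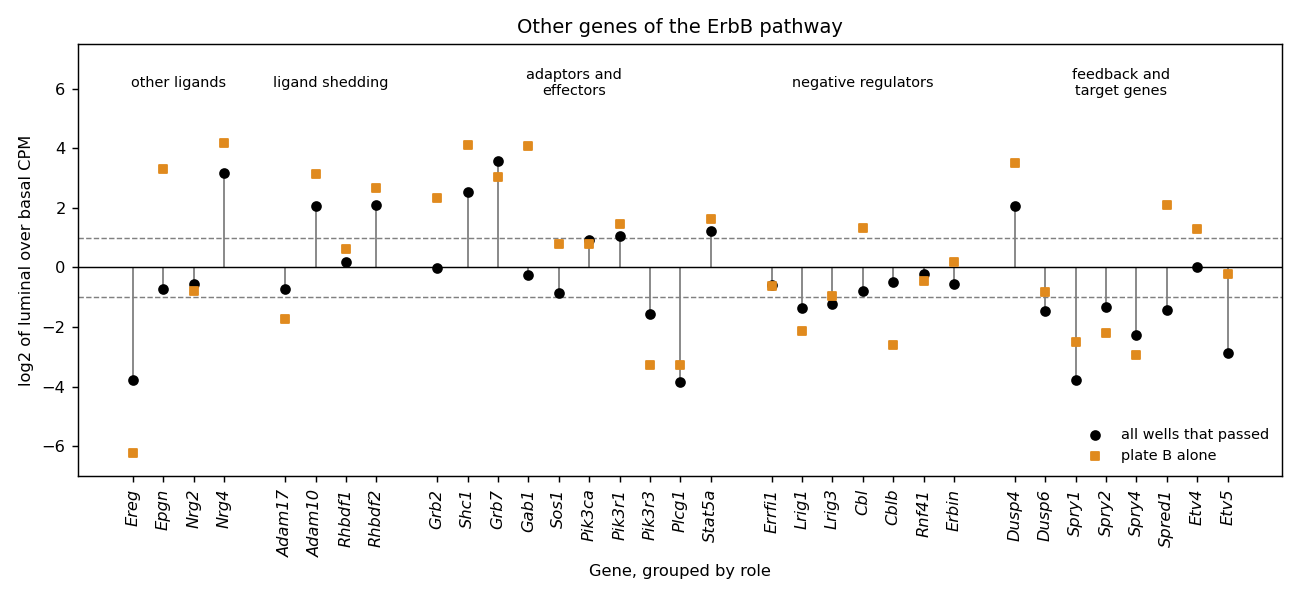
Ratio of luminal over basal summed CPM (log2, 1 CPM added to each) for the 33 other genes of the ErbB pathway list that passed the filter, grouped by role, over all wells that passed (black circles) and on plate B alone (orange squares), with dashed lines at 2-fold. *Adam10*, *Rhbdf2*, *Shc1* and *Nrg4* lie above and *Ereg*, *Plcg1* and *Spry4* below the dashed lines in both sets, while *Etv5* and *Spred1* do not. On plate B *Ereg* and *Plcg1* did not pass the filter on low values.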

How the data were processed

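Single-cell RNA-seq libraries were prepared from 96 basal and 90 luminal cells. According to the methods of the study and the labels, the authors mapped read pairs to mm10 with Subread, summarised them with featureCounts and the RefSeq annotation built into Rsubread, and deposited the raw counts of each cell. Whether counting used strand is not given in the sources used here, so genes overlapping a member may share reads. Of 27179 identifiers, 25275 matched a symbol in RefSeq for GRCm38.p6. The rest, with 1.94% of the counts, were removed, as were 15 mitochondrial and 121 ribosomal protein genes. Wells needed 50000 reads and 1000 genes (basal) or 100000 reads and 1500 genes (luminal). Counts were summed per population and scaled to CPM, and 1 CPM was added for log2 ratios. For detection, wells were thinned to 50000 reads without replacement. A doublet caller was not run, because wells were inspected by microscope in the study. No pair of wells looked like 1 library deposited more than once, since the smallest chi-square per gene between wells was 47.4 in basal and 58.6 in luminal cells.

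The likelihood ratio tests over cells used in the study were not applied, since cells are not replicates. The members and gene lists were chosen with earlier results of these data known. All 10 members were named. Pathway genes were named where the size of the log2 ratio was at least 2 with at least 20 CPM in the higher population. Other pathway genes named (*Epgn*, *Nrg4*, *Adam17*, *Errfi1* and *Spred1*) were chosen after their values were seen. Wells were named where 1 held at least 50% of the reads of a member in a population or moved a ratio by over 1.5 times, and further wells after their values were seen. The table that covers all cells at once was left aside. Scripts were tested on simulated data with known fold changes. Tools were Python 3.11.15 with numpy 2.4.6, pandas 2.3.3, scipy 1.17.1 and matplotlib 3.10.9, and R 4.3.3 with edgeR 4.0.16 for TMM factors only. Alternatives covered cell and gene filters, CPM added, scaling, weighting of wells, plates, and single wells.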

Additional observations from a re-analysis of the deposited data

Results flagged for a closer look

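The wells that fell below the thresholds of the study enter no comparison above, but they held reads of the leading ligands above the limit of 3 counts. The 24 basal wells below had 265892 reads in all, of which 180 were *Nrg1* (677 CPM), spread over 23 wells. The same wells had 8 reads of *Areg* (30.1 CPM) in 6 wells. The 14 luminal wells below had 413758 reads, of which 1323 were *Areg* (3198 CPM) in 5 wells, with 937 in luminal cell 90. No other member exceeded 3 reads in either set, where 3 reads stand for 11.3 CPM (basal) and 7.25 CPM (luminal), so lower levels were not detectable there.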

How the results depend on the processing

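*Nrg1*, *Areg*, *Btc*, *Erbb2* and *Erbb3* kept their direction and 2-fold size in all 13 alternatives with other wells, filters or scaling (1 of them, without wells that moved a ratio by over 1.5 times, chosen after seeing the data), with ratios of -11.92 to -7.31, 5.62 to 7.86, 2.47 to 7.65, 1.53 to 4.28 and 2.64 to 6.12. *Egfr* and *Tgfa* did so in 12 of 13, and turned on plate B alone (0.19 and 2.50), where basal wells held fewer genes. *Erbb4* stayed past 2-fold in 9 of 13 and was between 0.04 and 0.33 in the others. TMM factors moved the median of all genes from 0.18 to 0.03 and changed no call of a member. On plate B alone 7 pathway genes were higher in basal and 14 in luminal cells, where 19.3% and 48.6% of all genes were. Over all wells the numbers were 11 and 8, where 18.3% and 28.4% of all genes were. With a log2 ratio of 2 over all wells they were 5 and 6, where 7.98% and 13.3% of all genes were. On plate B 2 members had separate detection intervals. Over all wells 5 did, where 8.99% of all genes were separate with luminal wells higher and 2.88% with basal wells higher. Another thinning seed gave 6 such members and a minimum of 5 reads 4, without *Egfr*, which thinning to 100000 reads also lost. The shares of all genes were not computed for plate B or for these detection settings. Of 18 combinations of a ligand-receptor pair and a population, 2 were found together in at least 5 wells at 50000 reads, 6 (from 5 pairs) without thinning and 0 with 5 reads of each gene required. Members 2-fold apart between score ranges numbered 5 over all wells, where 23.2% of all genes were 2-fold higher above 0 and 18.7% at or below it. They numbered 3 on plate B, 7 on plate C, 7 with wells thinned and 3 without each member's top well, a setting chosen after seeing the data. The shares of all genes under these alternatives were not computed. Between the ranges, *Tgfa* turned on plate C (0.90) and without its top well (1.17), *Egfr* on plate B (0.19), and *Erbb4* on plate B (0.06) and without the wells of other transcripts (0.13). The cause of these turns was not tested. No paired analysis was possible because the cell numbers of the labels pair no cells across populations and no test was run. Depth limits the low members, since 3 reads in a population stand for 0.0356 CPM (basal) and 0.0263 CPM (luminal), and 1 sample per population gives no replicate error.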
